A study of Mus musculus with 2 samples.

Results

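The cells described here are splenic CD11c+ cells that held at least 3 UMIs of Ccr2, Cd209d, Mgl2 and Clec10a together and few UMIs of the genes that mark other CD11c+ populations. They were 514 of 19339 cells, 130 of 7814 from WT mice and 384 of 11525 from mice with the mutation H2-Aa cit/cit (cit hereafter). The rule left out cells with 4 or more UMIs of Ccr7, Fscn1, Socs2 and Cacnb3, 4 or more of Top2a, Mki67, Birc5 and Pclaf, 2 or more of Xcr1 and Clec9a, 5 or more of Siglech, 10 or more of S100a8 and S100a9, 3 or more of Ncr1, Klrb1c and Gzma, 5 or more of Negr1, 3 or more of Ace, Fabp4 and Treml4 or 3 or more of C1qa, C1qb and C1qc. Cells with at least 1 Siglech and at least 2 Cx3cr1 UMIs were left out too. As the cells were picked by measured UMIs, the levels of these genes in them are a description and not a finding. They are called the gated cells below, since most of them had no Mgl2 UMI.

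Each library was made from spleens of 3 pooled naive female mice, 4 months old by the labels (the study's methods give a younger range for its mice in general), of genotype H2-Aa +/+ (WT) or H2-Aa cit/cit (cit). The study describes a C57BL/6J background. The cit (citation) allele is a germline change made by ENU, present in every cell of the mouse, of G to A at the fifth base of intron 1 of H2-Aa, the gene of an MHC-II alpha chain (GRCm38, chr17:34282744-34287823, minus strand, with the fifth base of intron 1 at 34287677). CD11c+ cells were enriched from both pools with magnetic beads, live CD45.2+ CD11c+ cells were sorted, and 3′ single-cell libraries were made and sequenced on 1 lane. With 1 library per genotype there was no replicate and no test, and pool, library and genotype cannot be told apart. Values in parentheses after a level, share or ratio are 95% intervals that cover counting error alone. Levels are counts of a gene's UMIs scaled to the UMIs of a population (counts per 1000000, CPM), which are not scaled to transcript length, so they are compared between cells and not between genes. Where a pair of values is given without names, the WT value comes first and the cit value second. The libraries held 51020804 and 72652201 UMIs and shared 31 cell barcodes, 2 of them with a gated cell. The gated cells held 1356035 UMIs in WT (median 10786 per cell, range 921 to 19808) and 3304351 UMIs in H2-Aa cit/cit (median 8309 per cell, range 2232 to 21753). Over all cells the medians were 5492 and 5633 UMIs.

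Conventional DC of type 2 (cDC2) present peptides on MHC-II to CD4 T cells and need the growth factor FLT3L. In mouse spleen they have been divided into an ESAM-high, NOTCH2-dependent kind that takes up blood-borne antigen and an ESAM-low kind that carries CLEC12A, CX3CR1, LYZ2 and CCR2 and shares genes with monocytes. CCR2 is the receptor by which monocytes and some DC leave bone marrow and follow CCL2. Cd209d, Mgl2 and Clec10a encode C-type lectins, of which Mgl2 (CD301b) and Clec10a (CD301a) bind galactose and N-acetylgalactosamine and Cd209d belongs to the DC-SIGN family. Transitional DC, a population with traits of plasmacytoid DC (pDC) and of cDC2, express Tcf4, Ly6c2, Cx3cr1 and Siglech.

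The gated cells formed the upper end of a range. Among cells that passed all exclusions, 4183 of 4470 WT (93.6%) and 7441 of 8369 cit cells (88.9%) held no UMI of the 4 genes. A sum of 2, just outside the gate, was found in 32 WT (0.716%) and 142 cit cells (1.70%), and a sum of 3, just inside it, in 14 (0.313%) and 87 cells (1.04%). A sum of 10 or more was found in 49 WT (1.10%) and 100 cit cells (1.19%). The median sum of the gated cells was 8 in WT (range 3 to 51) and 5 in cit (range 3 to 57). In all, the gated cells were 1.66% of WT cells (1.39–1.97) and 3.33% of cit cells (3.01–3.68), a difference of 1.67 percentage points (1.23–2.10). Among cells that passed the exclusions the shares were 2.91% (2.43–3.44) and 4.59% (4.15–5.06). The difference was 2.49 points (1.99–2.98) for a sum of at least 2, 0.776 points (0.415–1.13) for at least 5 and 0.241 points (-0.012 to 0.481) for at least 10. The exclusions reached far into the cells that carry these genes, since 394 WT and 689 cit cells had a sum of at least 3 before them. The Xcr1 and Clec9a limit alone met 173 and 202 of these cells, and the Siglech limit 89 and 71.

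**Figure D1:**
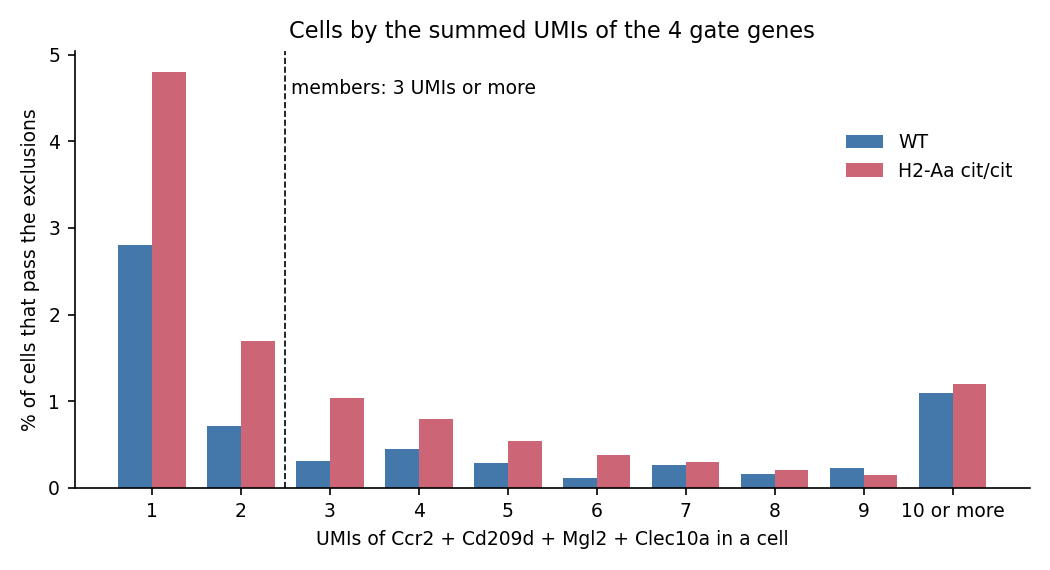
Percent of cells that passed the exclusions (y axis) by their summed UMIs of Ccr2, Cd209d, Mgl2 and Clec10a from 1 to 10 or more (x axis), with bars for the WT and cit libraries and a dashed line at the minimum of 3. At a sum of 3 the bars stand at 0.313% and 1.04%, and at 10 or more at 1.10% and 1.19%.

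Cells on both sides of the threshold were compared by genes that the rule did not use. Cd209a, a DC-SIGN family lectin of cDC2, was at 350 CPM in WT cells with a sum of 2 and 629 CPM in those with a sum of 3, and at 457 and 513 CPM in cit cells. Ffar2, a receptor for short-chain fatty acids, was at 136 and 27.8 CPM in WT cells with a sum of 2 and of 3 and at 158 and 91.8 CPM in cit cells. In cells with no UMI of the 4 genes Cd209a was at 73.0 and 123 CPM and Ffar2 at 260.2 and 305 CPM. In these 2 genes, cells just outside the gate stood between the cells just inside it and those with no UMI of the 4 genes in both libraries. Clec12a and Csf1r did not lie between in this way, at 136 and 109 CPM and at 148 and 97.7 CPM at a sum of 2, beside 111 and 84.7 CPM and 129.5 and 93.2 CPM at a sum of 3. Ahnak lay between in both libraries. Cd4 and Cx3cr1, which the rule limited in part, did so in cit but not in WT. Lyz2 did so in WT but not in cit, and Esam, on few UMIs, in neither.

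Ccr2 (chr9:124101950-124113557, plus strand, GRCm38) was the gate gene seen most often, with a UMI in 117 of 130 WT (90%, 83.5–94.6) and 328 of 384 cit gated cells (85.4%, 81.5–88.8). Clec10a (chr11:70156197-70170834, plus strand) was seen in 50.8% and 50.3% of them, Cd209d (chr8:3871824-3878555, minus strand) in 27.7% and 27.6%, and Mgl2 (chr11:70130329-70137550, plus strand) in 26.9% and 28.6%. UMIs of a single gate gene made up the sum in 40 WT and 119 cit cells, and all 4 genes were seen in 3 and 5 cells. After every cell was thinned to 1500 UMIs, Ccr2 was seen in 46.1% and 35.4% and Mgl2 in 11.7% and 18.0% of gated cells. Cells of the same exclusions with a Ffar2 UMI and a sum under 3 (Ffar2+ cDC2 hereafter, 2024 WT and 4585 cit cells) served for comparison, and at 1500 UMIs Ccr2 was seen in 0.517% and 0.882% of these and Mgl2 in 0.103% and 0.0679%. The shares in the gated cells thus stood above this background, which the rule itself sets. Thinning left out 2 WT and 0 cit gated cells and 91 and 165 Ffar2+ cDC2 that had fewer UMIs. Mgl2 and Clec10a are neighbors of similar sequence, as are Cd209d and Cd209a, and reads that fit both members of a pair may not have been counted. A name that calls all of these cells positive for Mgl2 is therefore not borne out by the counts, while most of them carried Ccr2.

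Summed over the gated cells, the level of Ccr2 was 437 CPM (403–474) in WT and 347 CPM (327–368) in cit. Cd209d was at 187 CPM (165–212) and 205 CPM (189.7–221). Mgl2 was at 136 CPM (117–158) and 156 CPM (143–170.2), and Clec10a at 176 CPM (154–199) and 186 CPM (172–202). As the gate summed these 4 genes and the gated cells of WT were deeper and had higher sums, nothing is read from their differences between the libraries. Csf1r, the receptor of macrophage colony stimulating factor and the one marker of the label that the rule did not use, was at 136 CPM (117–158) and 119 CPM (108–132) in gated cells and at 50.8 and 56.0 CPM in Ffar2+ cDC2.

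Genes of the cDC lineage and of cDC2 were present in the gated cells. Of the list of cDC2 genes, 4 of 15 measured were at least 2-fold above Ffar2+ cDC2 in both libraries and 2 below. Over all genes 2.64% were above and 4.50% below. The gate genes Mgl2 and Clec10a were 2 of the 4, which the rule sets. Flt3, the receptor of FLT3L, was at 358 CPM (327–392) and 353 CPM (333–373) in gated cells, beside 366 and 322 CPM in Ffar2+ cDC2. Zbtb46, a transcription factor of the cDC lineage, was at 190.3 CPM (168–215) and 218 CPM (202–234), beside 279.6 and 274 CPM. Sirpa, the receptor used to sort cDC2, was lower than in Ffar2+ cDC2, at 253 CPM (227–281) and 183 CPM (169–199) beside 427 and 349 CPM. Klf4, needed by part of the cDC2 lineage, was at 208 and 174 CPM beside 74.0 and 74.7 CPM, and Irf4, a cDC2 transcription factor, at 81.1 and 96.8 CPM beside 62.3 and 52.1 CPM. Both of these stood above the comparison cells in either library. Cd209a (chr8:3743397-3748984, minus strand) was at 654 CPM (612–699) and 641 CPM (614–669), against 91.0 and 142 CPM.

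Gated cells and Ffar2+ cDC2 differed in the genes of both kinds of splenic cDC2. Of the list of ESAM-high cDC2 genes, 6 of 7 measured were at least 2-fold below Ffar2+ cDC2 in both libraries and 0 above, though Ffar2 is itself on that list. Esam, an adhesion molecule, was at 3.69 CPM (1.20–8.60) and 1.51 CPM (0.491–3.53) beside 21.5 and 17.5 CPM. Cd4 was at 24.3 and 23.6 CPM beside 120.0 and 113 CPM, and Dtx1, a target of NOTCH signaling, at 2.95 and 14.8 CPM beside 156 and 119 CPM. All 3 were low in the gated cells of both libraries, while Notch2 itself was at 211 and 182 CPM beside 192 and 161 CPM. Of the list of ESAM-low, Clec12a-high cDC2 genes, 4 of 10 measured were at least 2-fold above Ffar2+ cDC2 and 0 below. Clec12a, an inhibitory lectin, was at 136 CPM (117–158) and 103 CPM (92.2–114) beside 19.7 and 27.6 CPM. Cx3cr1, the fractalkine receptor, was at 149.7 CPM (129.8–172) and 75.4 CPM (66.3–85.3) beside 19.1 and 14.2 CPM, and Lyz2, the lysozyme of myeloid cells, at 1439 CPM (1376–1504) and 497 CPM (473–522) beside 92.4 and 44.7 CPM. Csf1r was the other of the 4. Cells with Ace, Fabp4 and Treml4 UMIs that met the other exclusions (122 and 195, added after seeing the data) held Lyz2 at 2164 and 1051 CPM. At 1500 UMIs, Csf1r was seen in 43.0% and 37.1% of them and in 12.5% and 13.3% of gated cells. Cx3cr1 was seen in 37.2% and 22.2% against 15.6% and 9.38%, and Clec12a in 11.6% and 8.25% against 21.1% and 14.6%. Over all 4135 genes compared, 2.64% were at least 2-fold above and 4.50% at least 2-fold below.

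**Figure D2:**
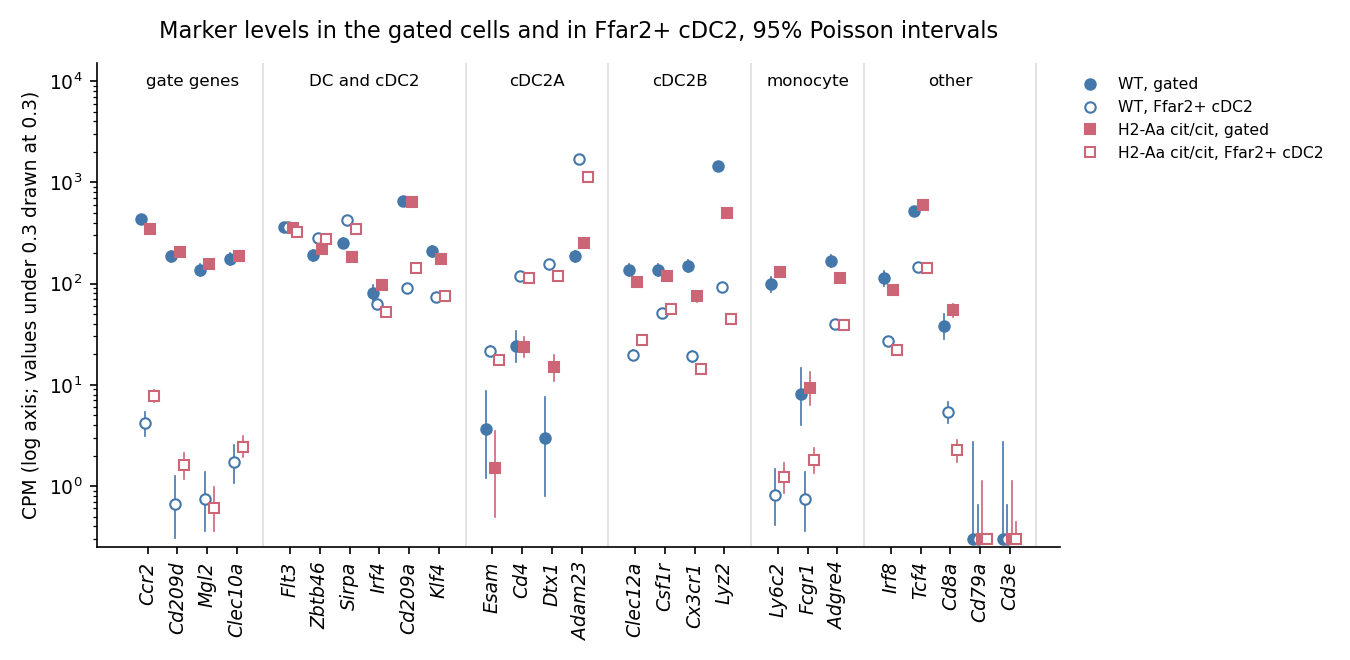
Level of marker genes in CPM on a log axis, for gated cells (filled) and Ffar2+ cDC2 (open) of the WT (circles) and cit (squares) libraries, with 95% Poisson intervals and values under 0.3 CPM drawn at 0.3. Flt3 and Zbtb46 lie close together in both populations, whereas Esam, Cd4 and Dtx1 lie lower and Clec12a, Cx3cr1 and Lyz2 higher in the gated cells, and Cd79a and Cd3e had no UMI in them.

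Lists for the other cell types that the sort could hold were summed in the gated cells. Of 13 classical monocyte genes, 10 had a UMI in WT and 11 in cit, and the list summed to 1645 and 2122 CPM, beside 999.7 and 1434 CPM in Ffar2+ cDC2. Its most abundant gene was Plac8, at 1052 and 1499.5 CPM, a gene that pDC also express. Fcgr1, an Fc receptor that marks monocytes and macrophages, was at 8.11 and 9.38 CPM, and Chil3 and Hp were at 0 in both libraries. The 10 nonclassical monocyte genes summed to 358 and 275 CPM, beside 289.7 and 253 CPM in Ffar2+ cDC2, led by Adgre4, an adhesion receptor also found on cDC2, at 168 and 113 CPM. At least 3 UMIs of this list were found in 69 of 130 WT (53.1%) and 129 of 384 cit gated cells (33.6%), beside 26.7% and 22.7% of Ffar2+ cDC2. These shares were not matched for depth, and the gated cells of WT were deeper, with medians of 10786 against 8309 UMIs. Ffar2+ cDC2 were shallower than the gated cells, with medians of 6634.5 and 6305 UMIs, so a fixed minimum of 3 UMIs is met more easily by the gated cells. Red pulp macrophage genes summed to 71.5 and 85.3 CPM, beside 248 and 231 CPM in Ffar2+ cDC2, most of it Adgre1 at 57.5 and 67.8 CPM, with Cd5l at 0 in both libraries. B cell genes summed to 258 and 202 CPM, beside 208 and 213 CPM in Ffar2+ cDC2, led by Ighm at 154 and 148 CPM, while Cd79a, Ms4a1 and Pax5 were at 0. Of the NK cell genes only Klrk1, which codes for NKG2D, was abundant, at 199 and 158 CPM beside 35.6 and 47.4 CPM in Ffar2+ cDC2, with Nkg7, Prf1 and Eomes, which the rule did not use, at 0. A count of 0 allows up to 2.21 CPM in WT and 0.908 CPM in cit gated cells (3 UMIs). T cell, neutrophil, erythroid, mast cell and platelet lists each summed to less than plasma cell genes, which reached 25.1 and 21.5 CPM.

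The lists of pDC and transitional DC genes summed higher than in Ffar2+ cDC2. The pDC list summed to 1285 and 1457 CPM, beside 698 and 705 CPM in Ffar2+ cDC2, led by Tcf4, the transcription factor of pDC, and the transitional DC list to 3338 and 2404 CPM, beside 904 and 778 CPM in Ffar2+ cDC2, led by Lyz2 in WT and Cd209a in cit. In 29 cells of each library, of any gate sum, that the rule left out for Siglech with Cx3cr1, Lyz2 was at 49.8 and 25.6 CPM. In gated cells it was at 1439 and 497 CPM, so its part in the sum was not shared with those left-out cells. Siglech was at 8.11 and 26.3 CPM, with a UMI in 7 WT and 48 cit gated cells, as the rule allowed up to 4 Siglech UMIs in cells with at most 1 Cx3cr1 UMI. The cDC1 list summed to 1076 and 993 CPM, beside 1848 and 1539 CPM in Ffar2+ cDC2, led by Wdfy4. Genes of the mature, CCR7+ state summed to 715 and 527 CPM, beside 1245 and 904 CPM in Ffar2+ cDC2, and those of S phase and mitosis to 1304 and 1233 CPM, beside 1199 and 1221 CPM in Ffar2+ cDC2. The rule itself limited genes of the lists for cDC1, pDC, transitional DC, mature DC, S phase and mitosis, NK cells, neutrophils, nonclassical monocytes and red pulp macrophages, so the levels of the limited genes are set by it and say nothing of absence. Progenitor genes summed to 1105 and 1103 CPM, beside 931 and 824 CPM in Ffar2+ cDC2, led by Flt3. The gated cells also held more ribosomal UMIs than the comparison cells, with medians of 20.1% and 20.6% against 14.1% and 17.3% in Ffar2+ cDC2. Mitochondrial UMIs had medians of 1.49% and 1.58%. The part of these lists and shares in the results below was not tested beyond the alternatives given.

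Gene by gene against Ffar2+ cDC2, 109 of 4135 genes (2.64%, the 4 gate genes among them) were at least 2-fold above and 186 (4.50%) at least 2-fold below in both libraries, on the log2 (CPM + 5) scale, which understates the change of low genes. Because the cells were picked from the same counts, these are the features of the picked cells and no test. By the smaller of the ratios of the 2 libraries, Ly6c2 stood highest apart from the gate genes. This gene of the Ly6C antigen, found on monocytes and pDC, was at 98.8 CPM (82.8–117) and 130.4 CPM (118–143) against 0.817 and 1.23 CPM. Cyp7b1, an oxysterol hydroxylase, was at 135 and 253 CPM against 4.53 and 6.47 CPM. Both came from few cells, with Ly6c2 seen in 18 of 130 WT and 77 of 384 cit gated cells and Cyp7b1 in 33 and 91. In WT, 10 cells held 90.3% of the UMIs of Ly6c2 and 69.9% of those of Cyp7b1, and in cit 43.6% and 36.7%. Crip1, a small LIM domain protein, was at 2019 and 1732 CPM against 110.0 and 129 CPM. Vim, the intermediate filament vimentin, was at 956 and 826 CPM against 113 and 85.9 CPM, and Ahnak, a large scaffold protein, at 236 and 192 CPM against 6.01 and 13 CPM. Secreted products were the chemokine Ccl9 at 125 and 121 CPM against 7.13 and 13.8 CPM, Wfdc17 at 426 and 454 CPM against 43.4 and 70.6 CPM and Trf, transferrin, at 177 and 137 CPM against 22.3 and 20.4 CPM. Also among the 15 highest were Lyz2, Plxdc2 (95.9 and 61.7 CPM), Dab2, an endocytic adaptor (61.9 and 72.0 CPM), Tnip3, an inhibitor of NF-kB signaling (73.0 and 53.0 CPM), Slamf9 (56.8 and 47.2 CPM) and Id3, an inhibitor of E proteins (53.8 and 30.3 CPM), and each of these was above 2-fold in both libraries.

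Lowest against Ffar2+ cDC2 by the library with the smaller change was Dscam, a homophilic adhesion molecule, at 95.9 and 117 CPM against 1847 and 1153 CPM. Frmd5, a FERM domain protein, was at 60.5 and 52.7 CPM against 982 and 452 CPM. Ube2e2, a ubiquitin-conjugating enzyme, was at 98.1 and 153 CPM against 1135 and 998 CPM, and Abcb1a, the multidrug exporter P-glycoprotein, at 8.11 and 16.3 CPM against 138 and 127 CPM. Dtx1, Esrrg, Tmem132c, Pglyrp1, Ccdc192 and Ffar2 completed the 10 lowest. Ffar2 was at 42.8 and 62.0 CPM against 393 and 406 CPM, which the choice of the comparison cells sets.

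**Figure D3:**
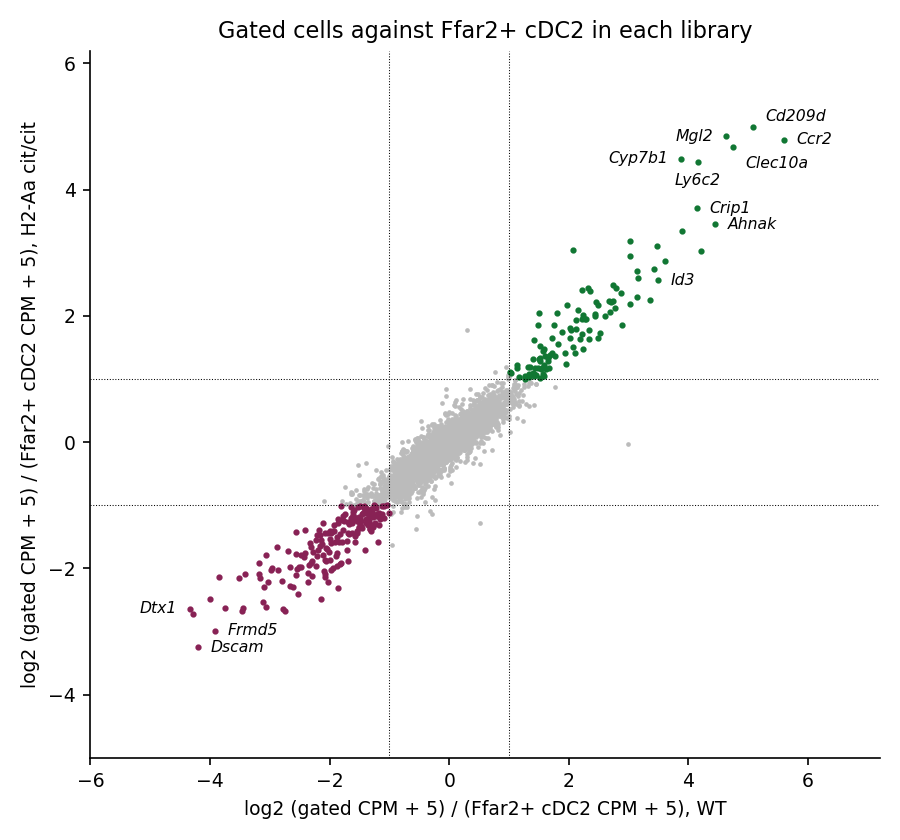
Log2 ratio of (CPM + 5) in gated cells to that in Ffar2+ cDC2 for each gene, in the WT (x axis) and cit library (y axis), with 2-fold lines dotted and genes past them in both libraries colored. The 109 genes in the upper right include the 4 gate genes, Ly6c2, Cyp7b1 and Crip1, and the 186 in the lower left Dscam, Frmd5 and Dtx1.

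Among receptors, 6 of 12 C-type lectins were at least 2-fold above Ffar2+ cDC2 and 1 below, where 2.64% of all genes were above and 4.50% below. The rule put 3 of the 6 there, the gate lectins. The others were Cd209a, Clec12a and Clec4b1, the last at 145 and 123 CPM against 27.0 and 26.8 CPM, and Clec4a4 (DCIR2), a lectin of ESAM-high cDC2, was the one below, at 13.3 and 14.8 CPM against 111 and 91.6 CPM. Of 6 Fc and complement receptors 2 were above, among them Fcgr2b, the inhibitory Fc receptor, at 149.7 and 137 CPM against 14.1 and 26.1 CPM. Of 22 growth factor and cytokine receptors, Csf1r and Il13ra1 (112 and 134 CPM) were above and 2 below, one of them Kit, the stem cell factor receptor, at 53.8 and 66.9 CPM against 219 and 186 CPM. Of 8 costimulatory and checkpoint ligands 3 were below and 0 above. Of 9 cytokines and chemokines 2 were above and 2 below, and Ccl5, a chemokine for T cells, was at 91.4 and 122 CPM against 489 and 531 CPM. Of 32 lineage transcription factors Irf8, Klf4, Tcf4, Id3 and Bach2 were above and Relb below. Bach2 was at 459 and 395 CPM against 94.2 and 117 CPM and Relb, an NF-kB subunit that splenic cDC2 depend on, at 161 and 115 CPM against 534 and 350.1 CPM. The 13 integrin and adhesion genes, the 19 MHC-I genes and the 35 ER folding genes had 0 past 2-fold in either direction.

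The gate genes were next counted together in single cells. Among Cd209d+ gated cells, 5 of 36 WT (13.9%) and 9 of 106 cit (8.49%) held an Mgl2 UMI, against 31.9% and 36.3% of gated cells without Cd209d. Among all cells that passed the exclusions the order was the opposite, with an Mgl2 UMI in 8.20% and 5.46% of Cd209d+ cells against 0.953% and 1.69% of cells without Cd209d. A gate on the sum of these genes itself makes them look exclusive, and nothing is read from the low overlap inside it. Of the Mgl2+ cells, 21 of 35 WT and 66 of 110 cit held a Clec10a UMI, and of the Cd209d+ cells 17 of 36 (47.2%) and 33 of 106 (31.1%). Ccr2 was seen in 33 of 36 (91.7%) and 97 of 106 (91.5%) of Cd209d+ cells and in 28 of 35 (80%) and 81 of 110 (73.6%) of Mgl2+ cells. A sum of 3 can be reached by 1 gene, so cells near the threshold had few UMIs left for a second, and these shares depend on that.

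Gated cells with Cd209d and no Mgl2 (31 WT and 97 cit, Cd209d members hereafter), with Mgl2 and no Cd209d (30 and 101, Mgl2 members) and with neither (64 and 177) were then summed apart, a split chosen after the values had been seen. At least 2-fold higher in Cd209d than in Mgl2 members in both libraries were 121 of 4309 genes (2.81%), and 148 (3.43%) were at least 2-fold lower. Levels are given here as those of Cd209d members, WT and cit, against those of Mgl2 members. Tcf4 was at 1227 and 1459 against 124 and 143 CPM. Ly6c2 was at 325 and 309 against 0 and 2.46 CPM, and Cyp7b1 at 394 and 706 against 3.18 and 3.69 CPM. All 3 were low in Mgl2 members of both libraries. Bst2, the interferon-induced surface protein that marks mouse pDC, was at 816 and 873 against 108 and 120.4 CPM, Cd7, a surface receptor of lymphoid cells and pDC, at 619 and 570.0 against 54.1 and 41.8 CPM and Cd8a at 91.6 and 154 against 0 and 4.91 CPM. Lag3, a receptor that binds MHC-II, was at 61.1 and 84.2 against 3.18 and 3.69 CPM and Sox4, a progenitor transcription factor, at 83.3 and 116 against 0 and 4.91 CPM. In WT Mgl2 members, a count of 0 allows up to 9.55 CPM. Irf4 was at 153 and 173 against 70.1 and 78.6 CPM, and Flt3 at 499.6 and 509 against 287 and 211 CPM.

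Other genes were higher in Mgl2 members. Ltb4r1, the receptor of leukotriene B4, was at 13.9 and 8.98 against 134 and 129 CPM. Hpgd, a prostaglandin dehydrogenase, was at 44.4 and 22.4 against 268 and 189 CPM and Tbxas1, thromboxane synthase, at 19.4 and 21.3 against 143 and 197 CPM. St3gal5, the synthase of the ganglioside GM3, was at 16.7 and 19.1 against 188 and 166 CPM. These 4 were higher in Mgl2 members of both libraries, as were the activating Fc receptor Fcgr3 (2.78 and 6.73 against 47.8 and 107 CPM), the lectin Clec4b1 (33.3 and 31.4 against 303 and 219.9 CPM) and the chemokine Ccl6 (27.8 and 48.3 against 289.8 and 328 CPM). Id2, an inhibitor of E proteins such as TCF4, was at 16.7 and 32.5 against 191 and 232 CPM. Lyz2 was at 411 and 92.0 against 1497 and 977 CPM, and at 2081 and 496 CPM in members with neither lectin. Csf1r was at 83.3 and 81.9 against 102 and 176 CPM, and Clec12a at 86.0 and 71.8 against 166 and 107 CPM, so in WT their levels differed by less than 2-fold between both kinds.

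Of the cells left out for Siglech with Cx3cr1, a population of 29 in each library (the left-out cells) was set beside the members. That limit met 35 WT and 36 cit cells with a sum of at least 3, so this population does not hold every cell it met. The left-out cells were taken at any gate sum, so not all of them need have reached 3, and Ccr2 had a UMI in 55.2% and 62.1% of them. The left-out cells held Cd209d at 704 and 419.8 CPM, Ccr2 at 339 and 307 CPM and Tcf4 at 1799.8 and 1803 CPM, whereas Mgl2 had 0 UMIs, which allows up to 9.34 and 11.0 CPM. Ly6c2 was at 321 and 493 CPM and Cyp7b1 at 405 and 945 CPM in them. Bst2 was at 956 and 745 CPM, Cd7 at 679 and 485 CPM and Cd8a at 243 and 201 CPM. Tcf4, Ly6c2, Cyp7b1, Bst2, Cd7 and Cd8a were named for being far apart between Cd209d and Mgl2 members, so a nearness of the Cd209d members to the left-out cells is not read from them. Crip1 and Vim, not chosen that way, were at 1386 and 1164 CPM and at 866 and 606 CPM in the left-out cells, with Crip1 at 2481 and 1639 against 2255 and 2281 CPM and Vim at 1260.1 and 828 against 1016 and 894 CPM in Cd209d against Mgl2 members. Cells with at least 2 Xcr1 and Clec9a UMIs (473 and 672) were also taken at any gate sum, and Ccr2 had a UMI in 25.6% and 35.0% of them. They held Ccr2 at 114 and 85.2 CPM and Cd209d at 52.0 and 24.5 CPM, which are not the levels of cells that reached the gate sum. Members with neither lectin, chosen mostly by Ccr2, were between the other 2 kinds in Tcf4 (346 and 322 CPM) and Bst2 (239 and 298 CPM).

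**Figure D4:**
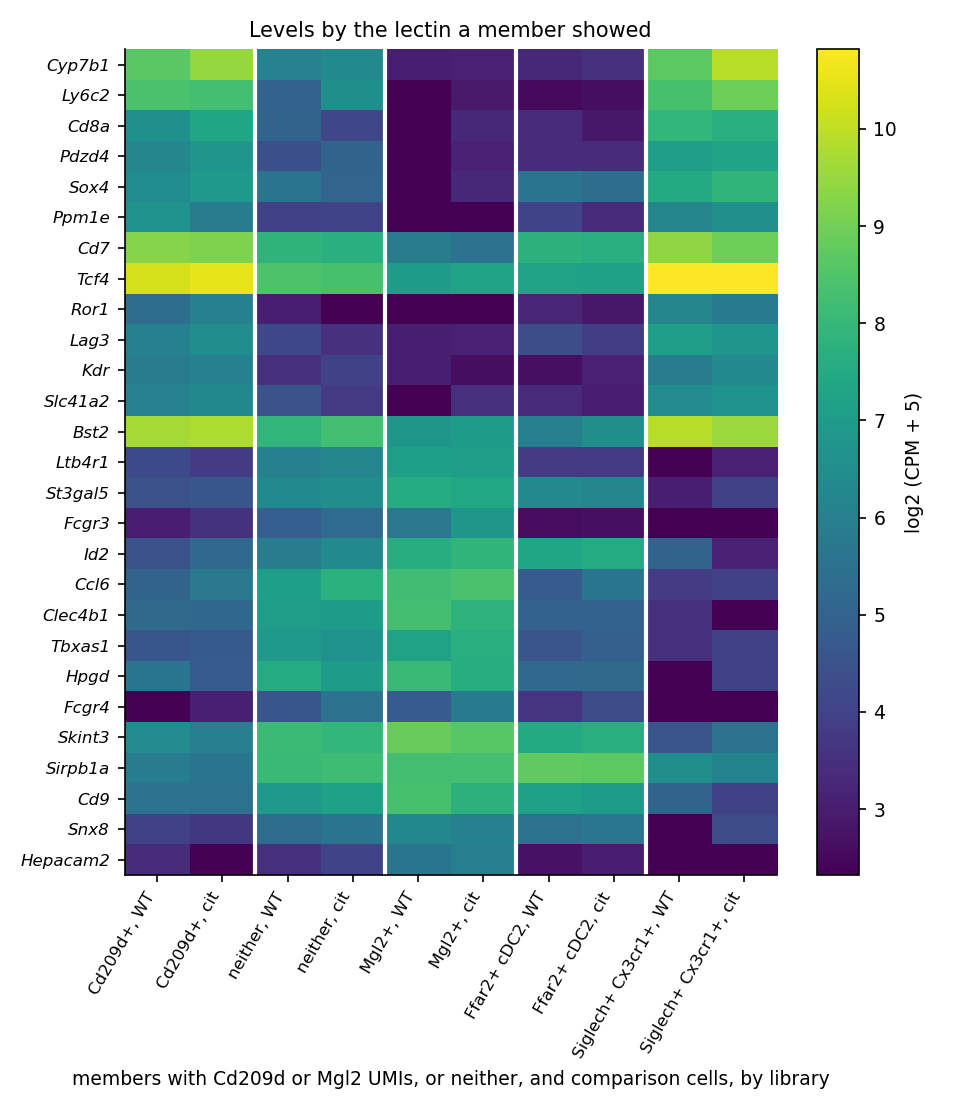
Heat map of log2 (CPM + 5) for 27 genes (rows) in Cd209d members, members with neither lectin, Mgl2 members, Ffar2+ cDC2 and 29 cells of each library left out for Siglech with Cx3cr1 (columns, each for the WT and cit libraries). The rows were chosen for the largest ratios between Cd209d and Mgl2 members, so the contrast between these columns is set by that choice.

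The mutated gene was looked at first between the genotypes. H2-Aa had 12964 UMIs in WT and 207 in cit gated cells, or 9560.2 CPM (9396–9726) and 62.6 CPM (54.4–71.8), with a UMI in 129 of 130 and 148 of 384 cells. This is a 153-fold lower level, with a log2 ratio of -7.25 (-7.46 to -7.06). The labels name the genotype alone, and the study found no mature H2-Aa message by RT-PCR in cit splenocytes. The 3′ tags do not read the splice junction of intron 1, so the UMIs left in cit cells do not show whether spliced message was made. In Ffar2+ cDC2 the log2 ratio was -6.36. The other measured MHC-II genes lay within 1.5-fold of WT. H2-Ab1, the beta chain that pairs with H2-Aa, was at 8601 CPM in WT against 8803 CPM in cit cells (log2 ratio 0.033, 0.0024 to 0.065), H2-Eb1 at 8124 CPM in WT against 8959 CPM in cit cells and the invariant chain Cd74 had a log2 ratio of -0.041 (-0.061 to -0.021). H2-Aa alone was past 1.5-fold of the 14 MHC-II genes measured, and their median log2 ratio was 0.039.

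Between the genotypes, 114 of 3663 measured genes (3.11%) were at least 1.5-fold higher and 58 (1.58%) at least 1.5-fold lower in cit gated cells, and the median over all of them was a log2 ratio of 0.017. In Ffar2+ cDC2, 98 of 3767 (2.60%) were higher and 64 (1.70%) lower, with a median of -0.050. Genes were measured where they reached 50 CPM and a UMI in 5% of the cells of the population in either library. Being past 1.5-fold is a statement of size between these 2 libraries.

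The list with the most higher genes was that of chaperones and enzymes that fold proteins in the endoplasmic reticulum (ER), of which 20 of 34 measured were at least 1.5-fold higher and 0 lower, beside 3.11% of all genes. The median log2 ratio of the list was 0.70, and its summed level was 4174 CPM in WT and 7569 CPM in cit gated cells. Sdf2l1, a partner of the ER chaperone BiP, was at 83.3 CPM in WT against 352 CPM in cit cells (4.22-fold, log2 ratio 2.08, 1.80 to 2.37) and had a UMI in 66 of 130 and 263 of 384 cells. Hspa5, which codes for BiP, was at 274 CPM in WT against 827 CPM in cit cells (3.02-fold, log2 ratio 1.59, 1.44 to 1.75). The median Hspa5 UMIs per 10000 of a cell were 1.88 and 4.96, so the median cell differed between the libraries as the sums did. Manf, a secreted factor that binds BiP, was at 83.3 CPM in WT against 307 CPM in cit cells (log2 ratio 1.88, 1.60 to 2.17), and its per-cell medians were 0.651 and 1.91 per 10000 UMIs. Creld2, an ER-resident protein, was at 11.1 CPM in WT against 56.0 CPM in cit cells (log2 ratio 2.34, 1.58 to 3.21) and Hyou1, a chaperone of the HSP70 family, at 14.0 CPM in WT against 56.6 CPM in cit cells (log2 ratio 2.01, 1.33 to 2.78). Hsp90b1, the ER member of the HSP90 family, went from 226 to 591 CPM, the disulfide isomerase Pdia6 from 156 to 369 CPM, the co-chaperone Dnajc3 from 99.6 to 262 CPM and the calcium-binding chaperone Calr from 347 to 619 CPM. Canx, Ppib and Sil1 did not pass 1.5-fold, with log2 ratios of 0.26, 0.20 and 0.058. Of the 20, 6 (Creld2, Hyou1, Pdia4, Nucb2, Txndc11 and Derl2) reached the minimum of 50 CPM in the cit library alone, so they could be measured only by being higher there. In Ffar2+ cDC2, where 2.60% of all genes were higher, 24 of 32 were higher, 9 of them measured through the cit library alone, and 0 were lower, with a median of 0.97. Both populations come from the same libraries, so the values are side by side and not independent.

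Genes for protein export and N-glycosylation followed, with 8 of 27 higher (beside 3.11% of all genes), 0 lower and a median of 0.49. Ddost, a subunit of the oligosaccharyltransferase, went from 86.3 to 159 CPM and Krtcap2, another of its subunits, from 156 to 267 CPM. The others were Spcs2, Stt3a, Sec63, Ssr2, Magt1 and Ostc, with log2 ratios from 0.62 to 0.76. Of 6 measured genes of the unfolded protein response, Xbp1 and Atf4 were higher, with log2 ratios of 0.72 (0.35 to 1.09) and 0.94 (0.52 to 1.38), and 0 were lower. Xbp1 and Atf4 are transcription factors of its IRE1 and PERK arms. In Ffar2+ cDC2, 13 of 27 export genes (median 0.56) and 3 of 7 genes of the response were higher, beside 2.60% of all genes. Of these, 4 export genes and all 3 genes of the response reached 50 CPM there in the cit library alone. They could be measured only by being higher. Stt3a and Atf4 reached 50 CPM in cit gated cells alone.

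Promoters of some ER genes carry the ER stress element (ERSE), a pair of motifs at a fixed distance bound by NF-Y and by ATF6 or XBP1. Windows of 300 bases, 250 before and 50 after the start of the RefSeq gene (GRCm38.p6), were at hand for 2940 of the 3663 genes. A gene was counted when any of its windows held a match. ERSE, spelled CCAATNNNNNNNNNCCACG and searched on both strands, was found in 8 of 2940 genes (0.272%), in 6 of 94 of the higher genes (6.38%) and in 0 of 43 of the lower genes. Among all 32851 windows, counted singly and not by gene, it was found in 0.119%, so that share has another unit. It contains the CCAAT box by construction, which alone was in 40.9% of the 2940 genes. ERSE-II, spelled ATTGGNCCACG, was found in 5 of 2940 (0.170%). Either element was in 9 of the 27 ER list genes with a window (33.3%). The 8 genes with ERSE were Calr, Canx, Creld2, Dnajc3, Hnrnpa3, Hsp90b1, Hspa5 and Pdia6, of which Canx and Hnrnpa3 were not past 1.5-fold. The matches of 4 of them are shown, as these genes were past 1.5-fold and span the strands of the match, as 69 bases of the plus strand with the match in capitals.
Hspa5 (chr2:34772000-34772068): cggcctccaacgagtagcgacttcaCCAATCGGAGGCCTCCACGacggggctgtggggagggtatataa
Creld2 (chr15:88819495-88819563): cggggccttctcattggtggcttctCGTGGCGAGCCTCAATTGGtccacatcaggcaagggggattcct
Pdia6 (chr12:17266466-17266534): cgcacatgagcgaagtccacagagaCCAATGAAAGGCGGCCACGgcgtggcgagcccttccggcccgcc
Dnajc3 (chr14:118937802-118937870): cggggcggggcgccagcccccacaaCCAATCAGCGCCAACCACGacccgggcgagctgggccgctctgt
In Creld2 the match reads in the other direction, with CCACG as its complement CGTGG first. The matches begin 65 (Hspa5), 126 (Creld2), 98 (Pdia6) and 105 (Dnajc3) bases before the start of the gene. Sdf2l1 and Nucb2 have windows without either element, and Manf, Hyou1 and Ly6a were not in the promoter table. A match is a stretch of letters and does not show that a factor binds there.

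Of 12 interferon-stimulated genes 4 were higher (beside 3.11% of all genes) and 0 lower, with a median of 0.31. Isg15, a ubiquitin-like protein, was at 42.8 CPM in WT against 98.4 CPM in cit cells (log2 ratio 1.20, 0.79 to 1.63), and Rtp4, Oasl2 and Usp18 had log2 ratios of 1.05, 0.79 and 0.60. All 4 are low, and 3 of them (Isg15, Rtp4 and Usp18) reached 50 CPM in the cit library alone. With a minimum of 100 CPM 0 genes of the list were higher. Ly6a, which codes for the interferon-responsive surface protein Sca-1, had the highest ratio of all measured genes and went from 12.5 to 91.1 CPM (7.27-fold, log2 ratio 2.86, 2.16 to 3.66), though 41.2% of its 17 WT UMIs lay in 1 cell. It had a UMI in 8 of 130 WT and 106 of 384 cit cells. In Ffar2+ cDC2 the log2 ratio of Ly6a was 3.44, and 6 of 14 interferon-stimulated genes were higher, 3 of them measured through the cit library alone, beside 2.60% of all genes. Cxcl9, a chemokine induced by interferon-gamma, was at 21.4 CPM in WT against 70.2 CPM in cit cells (log2 ratio 1.72, 1.15 to 2.33), but 1 cit cell held 38.8% of its UMIs and only 14 and 28 cells had any. Of 18 MHC-I genes 2 were higher (beside 3.11% of all genes) and 0 lower. These were H2-Q7 (162 to 291 CPM) and H2-Q6, which reached 50 CPM in the cit library alone. B2m had a log2 ratio of -0.093 (-0.17 to -0.02). The rest of the 10 highest were E330020D12Rik (17.7 to 81.1 CPM), Ide, the insulin-degrading enzyme (17.0 to 54.8 CPM), and Nucb2, a calcium-binding protein (30.2 to 89.0 CPM). Ly6a, Cxcl9, E330020D12Rik, Ide and Nucb2 reached 50 CPM in the cit library alone, so they could be measured only by being higher there.

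Lower genes lay in other lists. Of 20 immediate-early genes 7 were at least 1.5-fold lower and 0 higher, beside 1.58% of all genes, with a median of -0.52. Egr1 was at 56.8 CPM in WT against 21.2 CPM in cit cells (log2 ratio -1.42, -1.91 to -0.94), Fosb at 172 CPM in WT against 103 CPM in cit cells and Junb at 428 CPM in WT against 277 CPM in cit cells. Fos went from 196 to 124 CPM, and the feedback inhibitors Zfp36, Nfkbia and Tnfaip3 from 239.7 to 129.5 CPM, 440.3 to 261 CPM and 53.1 to 30.3 CPM. Egr1 and Tnfaip3 reached 50 CPM in the WT library alone. All 7 are induced early after cells are stimulated. With the members that held at least 3 UMIs of nonclassical monocyte genes left out, 3 genes of the list were lower. Nr4a1 is on both lists, so these members were picked in part by an immediate-early gene, and nothing is read from this count. In Ffar2+ cDC2, 4 of 19 were lower (beside 1.70% of all genes), with a median of -0.34, and 1 of the 4, Egr1, was measured through the WT library alone.

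Of 10 genes of ESAM-low cDC2, 4 were lower (Cx3cr1, which the rule limited, Lyz2, Tmem176a and Tmem176b) and 0 higher, with a median of -0.31, beside 1.58% of all genes lower. In Ffar2+ cDC2 1 of 8 was higher and 1 lower, with a median of 0.04, beside 2.60% of all genes higher and 1.70% lower there. The higher gene was Clec4a3, which reached 50 CPM there in the cit library alone. The gene lower there was Lyz2 as well, at a log2 ratio of -1.05, and it reached 50 CPM there in the WT library alone. Tmem176a and Tmem176b were at -0.41 and -0.22. Whether the list differed between the populations was not tested. Cx3cr1 (chr9:119901616-120069879, minus strand) was at 149.7 CPM in WT against 75.4 CPM in cit cells (log2 ratio -0.99, -1.26 to -0.72). The rule held Cx3cr1 to at most 1 UMI in members with a Siglech UMI, which were 7 of 130 WT and 48 of 384 cit gated cells, and without those members its log2 ratio was -0.93. Lyz2 (chr10:117277331-117282321, minus strand) was at 1439 CPM in WT against 497 CPM in cit cells (log2 ratio -1.53, -1.63 to -1.44), and it was unevenly spread. Of its UMIs, 10 cells held 63.0% in WT and 44.5% in cit, at least 10 UMIs were found in 29 of 130 and 33 of 384 cells, and the medians were 2.32 and 1.11 per 10000 UMIs. Its log2 ratio was -0.56 when Ccr2 was dropped from the gate sum and -1.21 for a sum of at least 5. Clec12a and Csf1r were not past 1.5-fold, at -0.41 (-0.67 to -0.14) and -0.19 (-0.45 to 0.066). The count of 4 was 2 for a sum of at least 5, without Ccr2 or Clec10a in the sum, without doublet candidates and without members that held a Siglech UMI. Nonclassical monocyte genes moved with this list, at 358 CPM in WT and 275 CPM in cit gated cells. Without the members that held at least 3 UMIs of them the Lyz2 ratio was -2.13 and 3 genes of the list were lower.

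After H2-Aa, the lowest ratio was that of H2-M2, a nonclassical MHC-I gene, at 84.8 CPM in WT against 14.8 CPM in cit cells (log2 ratio -2.52, -3.03 to -2.02), with 32.2% of the WT UMIs in 1 cell. Cxcl16, a membrane-bound chemokine, was at 67.8 CPM in WT against 21.5 CPM in cit cells (log2 ratio -1.66, -2.13 to -1.20). Gm47283 went from 218 to 72.3 CPM, Fabp5, a fatty acid carrier, from 68.6 to 24.2 CPM, Ptafr, the receptor of platelet-activating factor, from 75.2 to 29.4 CPM, Marcksl1 from 73.0 to 31.2 CPM and Tnni2 from 83.3 to 41.8 CPM. For Fabp5 and Marcksl1, 1 WT cell held 23.7% and 20.2% of the UMIs. H2-M2, Cxcl16, Fabp5, Ptafr, Marcksl1 and Tnni2 reached 50 CPM in the WT library alone, so they could be measured only by being higher there. Single genes were past the fold in other lists, among them Cd83, a maturation marker (log2 ratio -0.63, -0.92 to -0.34), the tumor necrosis factor receptor Tnfrsf1b (-0.85, -1.28 to -0.42), Bhlhe40 (-0.74, -1.16 to -0.31) and Id3 (-0.83, -1.28 to -0.38) on the lower side and the aryl hydrocarbon receptor Ahr (0.66, 0.29 to 1.06) on the higher side. Tnfrsf1b, Bhlhe40 and Id3 also reached 50 CPM in the WT library alone. In the lists of cDC core genes (9 measured), cDC2 identity genes (14), C-type lectins (11), Fc and complement receptors (6) and integrins (13), 0 genes were past 1.5-fold. Over all measured genes 3.11% were higher and 1.58% lower. At these shares lists this short would hold few such genes, so nothing is read from the 0.

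**Figure D5:**
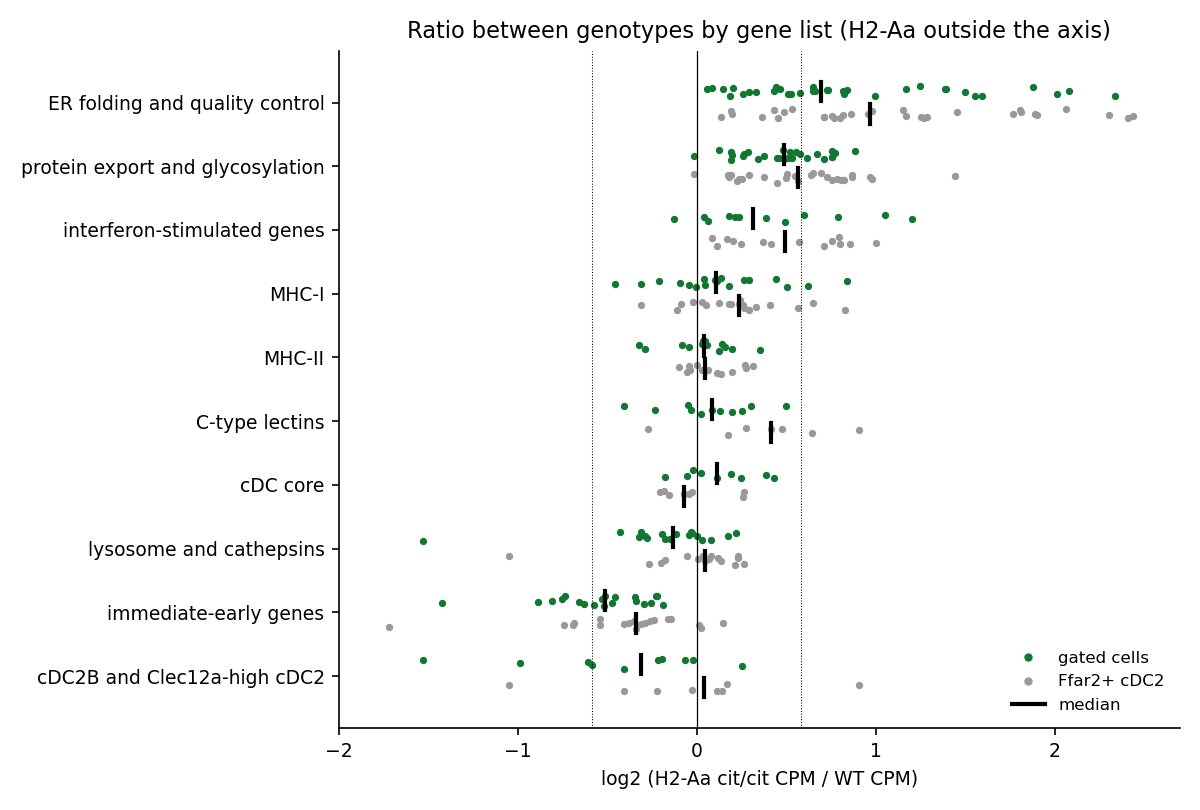
Log2 ratio of cit to WT for each measured gene of 10 lists (dots), in gated cells (green) and Ffar2+ cDC2 (grey), with a bar at each list's median and dotted lines at 1.5-fold. The ER folding genes have medians of 0.70 and 0.97 and the immediate-early genes of -0.52 and -0.34, and H2-Aa lies outside the axis.

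The ratios of the gated cells were set beside those of Ffar2+ cDC2 over the 3296 genes measured in both. Both come from the same libraries. The log2 ratios of 8 genes were at least 1 apart, with intervals of the difference and of the ratio in gated cells that excluded 0. Among those higher in the gated cells were Cacna1e, a calcium channel subunit (1.07 against -0.22, with 23.1% of its 39 WT UMIs in 1 cell), the glucose transporter Slc2a3 (0.88 against -0.39), Arap2, E330020D12Rik (2.20, or 1.20 above), Pag1, an adaptor of SRC kinases (1.11 against -0.074) and Adam23 (0.42 against -0.59), and H2-M2 was lower (-2.52 against -1.44). Cacna1e, Slc2a3, E330020D12Rik and Pag1 reached 50 CPM in cit gated cells alone, so they could be measured only by being higher there. H2-M2 reached it in WT gated cells alone, so it could be measured only by being lower in cit. These differences rest on counting intervals from 1 library per genotype and were not tested over animals. Within the gated cells, the log2 ratios of Sdf2l1 and Hspa5 were 2.39 and 2.04 in Cd209d members and 1.88 and 1.40 in members without a Cd209d UMI, and that of Lyz2 was -2.16 and -1.51.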

How the data were processed

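The authors made the deposited UMI counts per gene and cell from 10x Chromium Next GEM 3′ libraries with Cell Ranger 5.0.1 against mm10 (GRCm38), and the submitters' processing notes also name Seurat. The deposited counts are whole numbers, not normalized, for called cells with at least 500 UMIs. From them, cells were gated on raw UMIs, and UMIs were summed over the gated cells of each library and scaled to CPM. No cell was removed for mitochondrial UMIs or as a doublet. Doublet candidates from Scrublet in scanpy 1.11.5 (488 cells of the WT and 1063 of the cit library, 6 and 25 of them gated) were left out only as an alternative.

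Intervals (95%) are exact Poisson for CPM, Clopper-Pearson for shares, Newcombe for differences of shares and conditional binomial for ratios. They cover counting error only, and no test was made. A count of 0 allows up to 3 UMIs. Genotype calls needed a ratio of 1.5-fold in genes with at least 50 CPM and a UMI in 5% of gated cells in either library. Calls against Ffar2+ cDC2 needed 2-fold in both libraries after 5 CPM was added, in genes with at least 50 CPM. Scripts were tested on simulated data and run with Python (3.11.15), scipy (1.17.1), numpy (2.4.6), matplotlib (3.10.9) and pandas (2.3.3). Gene positions come from GENCODE vM21 and promoters from RefSeq (GRCm38.p6).

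The genes named are the gate genes and label markers, the 10 highest and 10 lowest genotype ratios, the 15 highest and 10 lowest ratios to Ffar2+ cDC2, and, from each list, up to 6 members by level or by ratio past the fold. A few genes these rules name are not reported here. Genes named for the split by Cd209d and Mgl2 or for a difference from Ffar2+ cDC2 were chosen after their values were seen. The members, the lists and the calls were chosen with earlier results of these data known. Alternatives changed the gate sum and its genes, the depth, the cells left out, the scaling, the minimum level and the fold.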

Additional observations from a re-analysis of the deposited data

Results flagged for a closer look

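Arap2, a GTPase-activating protein of ARF, was the 1 gene past 1.5-fold in opposite directions in the gated cells and in Ffar2+ cDC2. Its level was 63.4 CPM in gated cells of WT and 101 CPM in those of H2-Aa cit/cit mice, a log2 ratio of 0.67 (0.33 to 1.03), and at 501 and 332 CPM in Ffar2+ cDC2, a log2 ratio of -0.60 (-0.64 to -0.55). The log2 ratios differed by 1.27 (0.92 to 1.61), an interval that covers counting error only. Its UMIs came from 40 gated cells in WT and 161 in the mutant, with 11.6% of the WT UMIs in 1 cell. Within the gated cells its log2 ratio was 1.28 in Cd209d members and 0.549 in members without a Cd209d UMI. The latter is under 1.5-fold. With 1 library per genotype the difference was not tested.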

How the results depend on the processing

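No paired analysis was possible because there was 1 library per genotype, and for the same reason no replicate could be left out. The difference in the share of gated cells was 1.67 points, and it was 2.49 points for a gate sum of at least 2, 0.776 for at least 5, 0.9998 without Ccr2 in the sum and 1.17 without Clec10a. Among alternatives chosen after seeing the data, it was 0.241 for a sum of at least 10 and 1.21 with Cd209d+ members left out. The 114 higher and 58 lower genes became 202 and 108 without Ccr2 in the sum, 577 and 433 at a minimum of 10 CPM, 40 and 24 at 100 CPM and 26 and 9 at 2-fold. With members that held at least 3 UMIs of nonclassical monocyte genes left out (69 and 129 cells of the WT and cit libraries, chosen after seeing the data), they were 228 and 126, from fewer cells. The 109 and 186 genes past 2-fold against Ffar2+ cDC2 stayed within 1.5 times of these counts under every alternative run for them. The log2 genotype ratio of Ly6c2 was 0.40, and it was -0.065 without Ccr2 in the sum, -0.024 without members that held a Siglech UMI and -0.29 without those with nonclassical monocyte genes. Over 522 values of the ratios of 29 named genes, 487 moved by less than the counting interval, 32 moved by more and these 3 turned. The number of higher ER folding genes ranged from 11 at 2-fold to 24 at a minimum of 10 CPM. The cause of these changes was not tested. Depth limits genes near 50 CPM, which rest on about 68 WT UMIs.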
